A study of Homo sapiens with 12 samples.

Results

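The antioxidant genes of the NRF2 pathway were followed in 786-O cells, a long-established line of human renal carcinoma. The 10 genes were NFE2L2, KEAP1, NQO1, HMOX1, GCLC, GCLM, TXNRD1, SRXN1, GSR and ME1, taken by symbol from a count table of 17085 genes and reported whatever their values. The list was chosen with earlier results of these data known. All 10 passed the filter on low counts, which left 12841 genes for testing. The cells, labelled wild type (WT), were treated for 24 h in 4 groups of 3 libraries. The DMSO group received the vehicle. The everolimus group received everolimus, an inhibitor of mTOR, at 5 µM according to the treatment labels and the methods, although the protocol text of that group gives 10 µM. The SGI-1027 group received 1.5 µM of SGI-1027, an inhibitor of DNA methyltransferases, and the combination group received 5 µM everolimus with 1.5 µM SGI-1027. If the single-drug dose was the higher one, the combination and everolimus groups were not matched in dose. All groups came from 1 cell line, and no source used here says whether the 3 libraries of each group were grown as separate cultures, so the p values measure only the spread between these libraries, which may be technical.

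NRF2, the protein product of NFE2L2, is a transcription factor for genes of glutathione, thioredoxin, quinone, haem and NADPH metabolism. In resting cells KEAP1 binds NRF2 and hands it to a CUL3 ubiquitin ligase for degradation, and oxidants or electrophiles that modify KEAP1 let NRF2 accumulate and bind antioxidant response elements together with small MAF proteins. The pathway protects tubular cells of the kidney from oxidative injury and is activated in some renal carcinomas. NRF2 is controlled largely at the protein level, which RNA counts do not measure.

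The libraries held 37046231 to 41516976 counts. By the chi-square per gene between replicates, 2 libraries stood apart. The pairs with SGI-1027 replicate 3 gave 16.1 and 16.4, the pairs with DMSO replicate 1 gave 10.1 and 12.9, and the remaining pairs lay between 3.04 and 5.46. Of 6 renal markers, PAX8 (77.6 to 119 FPKM), PAX2, CDH6, VIM and KRT18 were present in every library, whereas CA9 lay between 0.0340 and 0.536 FPKM. Leukocyte, endothelial and hepatocyte markers each stayed at or below 0.249 FPKM. FPKM is the count scaled by gene length and library size.

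The antioxidant response element was looked up in the promoters as the letters TGACNNNGC on either strand. RefSeq promoter windows on GRCh38.p14, from 250 bases before to 50 bases after a start, covered 8 of the 10 genes with 11 windows. HMOX1 and GSR were not among them. The letters occurred in 5 of the 11 windows, belonging to GCLM, ME1, TXNRD1 and KEAP1, compared with 13.3% of all 35116 windows. Counted by gene, since some genes have several windows, this was 4 of 8, compared with 16.1% of all 27305 genes. They were not found in the windows of NFE2L2, NQO1, GCLC and SRXN1 or in the other KEAP1 window, which says nothing of sites further away. The matches whose first base lay upstream of the start are shown with 10 bases on each side because these genes moved in different directions, with the matched letters in capitals, 5′ to 3′ on the strand of the gene.
GCLM, chr1:93909446-93909474, minus strand: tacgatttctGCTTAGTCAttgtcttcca
KEAP1, chr19:10502784-10502812, minus strand: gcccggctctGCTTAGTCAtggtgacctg
KEAP1, chr19:10502807-10502835, minus strand: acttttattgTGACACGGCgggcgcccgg
TXNRD1, chr12:104215670-104215698, plus strand: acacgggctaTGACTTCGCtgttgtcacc
TXNRD1, chr12:104215761-104215789, plus strand: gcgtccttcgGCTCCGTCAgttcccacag
TXNRD1, chr12:104286920-104286948, plus strand: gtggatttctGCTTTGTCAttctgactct
ME1, chr6:83431170-83431198, minus strand: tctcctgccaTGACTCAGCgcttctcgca
The GCLM match and the KEAP1 match nearer to the start, whose first capitals lay 34 and 31 bases upstream, carried the same letters on the reverse strand. The ME1 match, 137 bases upstream, also contained TGACTCA, the AP-1 motif, which overlaps the searched letters and was present on either strand in 4.95% of all windows. The TXNRD1 matches began 99 and 8 bases before the start in the upstream window and 102 bases before it in the other. A match in letters is a description of the sequence and does not show binding.

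The 10 genes did not move as a block. HMOX1 and TXNRD1 rose with each of the 3 treatments, GCLM, SRXN1, GSR and ME1 fell with each of them, and NFE2L2 itself rose with SGI-1027 and fell with the combination. HMOX1 showed the widest movement, from 32.0 to 82.0 CPM (counts scaled to a common library size) between the DMSO and combination groups. Genes higher in all 3 treatments made up 20.2% of all tested genes (2 of the 10 here), and genes lower in all 3 made up 22.1% (4 of the 10 here). With everolimus, the fall of GCLM lost its call in 3 of 21 alternative fits of the data and that of ME1 in 7 of 21. All 3 treated groups were compared with the same DMSO libraries. These were bulk libraries, in which a change in the share of cells that express a gene and a change in RNA per cell cannot be told apart.

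**Figure D1:**
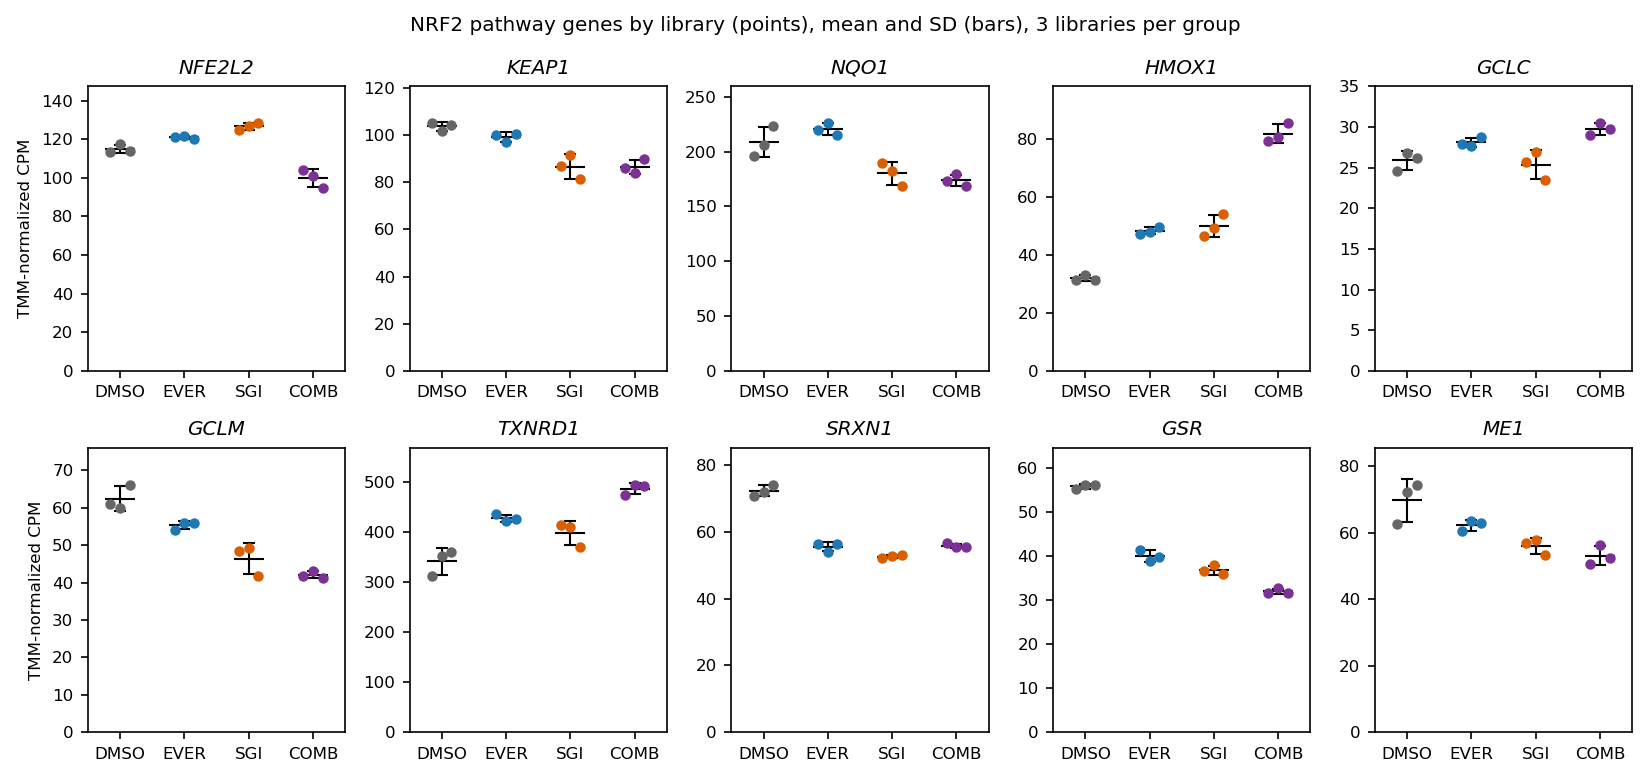
Each panel shows TMM-normalized CPM (y axis, from 0) of 1 gene in the 12 libraries, with the 3 libraries of each group as points and the group mean and SD as bars. EVER, SGI and COMB stand for the everolimus, SGI-1027 and combination groups. HMOX1 went from 32.0 CPM with DMSO to 82.0 CPM with the combination, and GSR from 55.9 to 32.1 CPM.

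The factor and its sensor were examined first. NFE2L2 counted 114, 117 and 114 CPM in the DMSO libraries and 121, 122 and 120.2 CPM in the everolimus libraries. Its values were 125, 127 and 128 CPM with SGI-1027 but 104, 101 and 94.7 CPM with the combination. Every combination library thus lay below every library of the other groups, while the SGI-1027 libraries lay highest. By the quasi-likelihood test of edgeR, adjusted after Benjamini and Hochberg, NFE2L2 rose with SGI-1027 (log2 fold change 0.14 ± 0.04 SE, adjusted p = 0.00549) and fell with the combination (-0.20 ± 0.04, adjusted p = 2.38e-04). For everolimus the log2 fold change was 0.07 with a 95% interval from -0.01 to 0.16, which did not pass the test (adjusted p = 0.122). The combination also lay below everolimus alone (-0.28, adjusted p = 2.22e-05) and below SGI-1027 alone (-0.34, adjusted p = 6.23e-06), so that the order from low to high was combination, DMSO, everolimus and SGI-1027. The neighbours DMSO and everolimus, and everolimus and SGI-1027, were not separated by the test. NFE2L2 was 0.13 higher with SGI-1027 on the log2 scale when DMSO replicate 1 or SGI-1027 replicate 3 was left out, and the adjusted p was 0.0149 and 0.0102.

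KEAP1, the adaptor that targets NRF2 for degradation, counted 105, 102 and 104 CPM with DMSO and 100.2, 97.0 and 100.4 CPM with everolimus. It stood at 86.9, 91.65 and 81.4 CPM with SGI-1027 and at 85.9, 83.9 and 89.7 CPM with the combination. The libraries of both groups that received SGI-1027 lay below all others and overlapped each other. KEAP1 fell by 0.26 on the log2 scale with SGI-1027 (adjusted p = 8.05e-05) and by 0.26 with the combination (adjusted p = 6.49e-05). With everolimus the log2 fold change was -0.06, with an interval from -0.16 to 0.03, and it was 0.01 after upper-quartile scaling, which sets libraries by their upper quartile instead of by trimmed means. The combination differed from SGI-1027 by -0.00, with an interval from -0.10 to 0.09.

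NQO1, a quinone reductase widely used as a readout of NRF2 activity, counted 196, 207 and 223 CPM with DMSO. It stood at 220.1, 226 and 216 CPM with everolimus, at 189.85, 182 and 169 CPM with SGI-1027 and at 173, 179 and 169 CPM with the combination. The everolimus libraries overlapped the DMSO libraries, and the SGI-1027 and combination libraries lay below both groups and overlapped each other. NQO1 fell by 0.21 on the log2 scale with SGI-1027 (SE 0.05, adjusted p = 0.00128) and by 0.26 with the combination (SE 0.05, adjusted p = 1.41e-04). The log2 fold change with everolimus was 0.08, with an interval from -0.02 to 0.18, and did not pass the test. It passed without DMSO replicate 3 (0.13, adjusted p = 0.0348) and after upper-quartile scaling (0.16, adjusted p = 0.0125).

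HMOX1, the inducible haem oxygenase that degrades haem to biliverdin, iron and carbon monoxide, counted 31.6, 33.2 and 31.3 CPM with DMSO. Everolimus libraries gave 47.5, 47.9 and 49.8 CPM and SGI-1027 libraries gave 46.7, 49.4 and 54.3 CPM. The combination libraries reached 79.4, 81.0 and 85.6 CPM. All treated libraries lay above all DMSO libraries, the combination libraries lay above all others, and the single-drug groups overlapped. HMOX1 rose by a log2 fold change of 0.60 ± 0.06 SE in the everolimus group (adjusted p = 7.32e-08), 0.65 ± 0.06 under SGI-1027 (adjusted p = 1.65e-08) and 1.36 ± 0.06 in the combination group (adjusted p = 3.88e-13). The combination exceeded everolimus by 0.76 and SGI-1027 by 0.71 (adjusted p = 2.63e-09 and 3.83e-08), whereas the single drugs differed from each other by 0.05 with an interval from -0.07 to 0.17. Across all alternative settings the change with the combination stayed between 1.32 and 1.41.

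The catalytic and modifier subunits of glutamate-cysteine ligase, which makes the first step of glutathione synthesis, moved apart. The modifier subunit gene GCLM counted 61.1, 59.8 and 66.1 CPM with DMSO and 54.0, 55.9 and 55.9 CPM with everolimus. Its values were 48.4, 49.1 and 41.6 CPM with SGI-1027 and 41.8, 43.1 and 41.2 CPM with the combination. No treated library reached the DMSO range. GCLM fell by 0.43 on the log2 scale with SGI-1027 and by 0.57 with the combination (adjusted p = 5.55e-06 and 1.30e-07). The fall of 0.17 with everolimus (adjusted p = 0.0174) did not pass without DMSO replicate 3 (-0.13, adjusted p = 0.0959), without everolimus replicate 1 (-0.16, adjusted p = 0.0658) or after upper-quartile scaling (-0.10, adjusted p = 0.163). Between the combination and SGI-1027 the difference was -0.14 (adjusted p = 0.111), and it passed without SGI-1027 replicate 3 (-0.21, adjusted p = 0.00573), the library with the lowest GCLM value of its group.

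The catalytic subunit gene GCLC counted 24.6, 26.9 and 26.2 CPM with DMSO and 28.0, 27.7 and 28.7 CPM with everolimus. It stood at 25.7, 26.9 and 23.4 CPM with SGI-1027 and at 29.0, 30.5 and 29.8 CPM with the combination. The combination libraries lay above all others, and the SGI-1027 libraries overlapped the DMSO libraries. GCLC rose with the combination, by a log2 fold change of 0.20 ± 0.06 SE (adjusted p = 0.00733). The difference between the combination and everolimus was 0.08, with an interval from -0.04 to 0.21, and did not pass (adjusted p = 0.304). Neither single drug gave a call against DMSO, with intervals from -0.01 to 0.25 for everolimus and from -0.16 to 0.10 for SGI-1027, although everolimus passed after upper-quartile scaling (0.19, adjusted p = 0.0128). The excess of the combination over SGI-1027 was 0.23 (adjusted p = 0.0107) and did not pass without SGI-1027 replicate 3 (0.18, adjusted p = 0.0502) or without combination replicate 2 (0.21, adjusted p = 0.0502).

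Among the reductases, TXNRD1 encodes the cytosolic thioredoxin reductase. It counted 311, 351 and 360.0 CPM with DMSO and 435, 421 and 424 CPM with everolimus. The SGI-1027 libraries gave 414, 409 and 369 CPM and the combination libraries 474, 494 and 491 CPM. No treated library fell into the DMSO range, DMSO replicate 1 was the lowest of all, and the combination libraries were the highest. On the log2 scale TXNRD1 rose by 0.32 with everolimus, by 0.22 under SGI-1027 and by 0.51 when both were given (each SE 0.05), with adjusted p = 2.84e-05, 9.43e-04 and 6.61e-08. Without DMSO replicate 1 these changes were 0.26, 0.16 and 0.45 and each passed. The single drugs differed by -0.10, with an interval from -0.21 to 0.00.

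SRXN1 encodes sulfiredoxin, which restores overoxidized peroxiredoxins. Its DMSO libraries gave 70.7, 71.9 and 74.0 CPM, and its everolimus libraries 56.2, 53.9 and 56.3 CPM. SGI-1027 libraries gave 52.0, 52.7 and 52.9 CPM and combination libraries 56.5, 55.4 and 55.4 CPM. The 9 treated libraries lay together below the DMSO libraries. SRXN1 fell by 0.38 with everolimus, by 0.46 under SGI-1027 and by 0.37 when both were given (log2 scale, each SE 0.04), with adjusted p = 4.29e-07, 2.87e-08 and 3.01e-07. Between treated groups the differences did not pass the test, and the one between the combination and everolimus was 0.01, with an interval from -0.08 to 0.10. The difference between the combination and SGI-1027 was 0.09 (interval -0.00 to 0.17) and passed when FPKM values were tested with limma-trend (0.10, adjusted p = 0.0252).

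GSR, the glutathione reductase, counted 55.2, 56.1 and 56.3 CPM with DMSO and 41.5, 39.0 and 39.8 CPM with everolimus. It went down to 36.6, 38.0 and 36.0 CPM with SGI-1027 and to 31.7, 32.8 and 31.7 CPM with the combination. The 4 groups did not overlap anywhere. GSR fell by 0.48, 0.60 and 0.80 on the log2 scale with everolimus, SGI-1027 and the combination (each SE 0.05), with adjusted p = 8.27e-08, 3.21e-09 and 4.60e-11. The combination lay below SGI-1027 by a log2 fold change of -0.20 (adjusted p = 0.00527), and the single drugs differed by -0.12, which did not pass (adjusted p = 0.0736). That difference passed after upper-quartile scaling (-0.14, adjusted p = 0.0388). It also passed in limma-trend on log2(FPKM + 1) (-0.12, adjusted p = 0.0290) and on log2(FPKM + 0.1) (-0.13, adjusted p = 0.0309).

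ME1, the cytosolic malic enzyme that supplies NADPH, counted 62.5, 72.4 and 74.5 CPM with DMSO and 60.5, 63.6 and 62.9 CPM with everolimus. Its values were 56.9, 58.0 and 53.2 CPM with SGI-1027 and 50.8, 56.2 and 52.6 CPM with the combination. The everolimus libraries overlapped DMSO replicate 1 only, and the SGI-1027 and combination libraries lay below the DMSO range and overlapped each other. ME1 fell by 0.32 with SGI-1027 and by 0.39 with the combination on the log2 scale (each SE 0.06, adjusted p = 1.95e-04 and 1.81e-05). The fall of 0.16 with everolimus (adjusted p = 0.0289) depended on single libraries and on the tool. In limma-trend on all 12 libraries the log2 fold change was -0.15 with adjusted p = 0.0529 on log2(FPKM + 1) and 0.0510 on log2(FPKM + 0.1). In edgeR the adjusted p was 0.110 without DMSO replicate 2 (-0.14), 0.148 without DMSO replicate 3 (-0.11), 0.108 without everolimus replicate 1 (-0.14) and 0.0585 without everolimus replicate 3 (-0.17). Without DMSO replicate 1 it was 0.00111, at a log2 fold change of -0.24. With upper-quartile scaling the log2 fold change was -0.09 (adjusted p = 0.222).

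**Figure D2:**
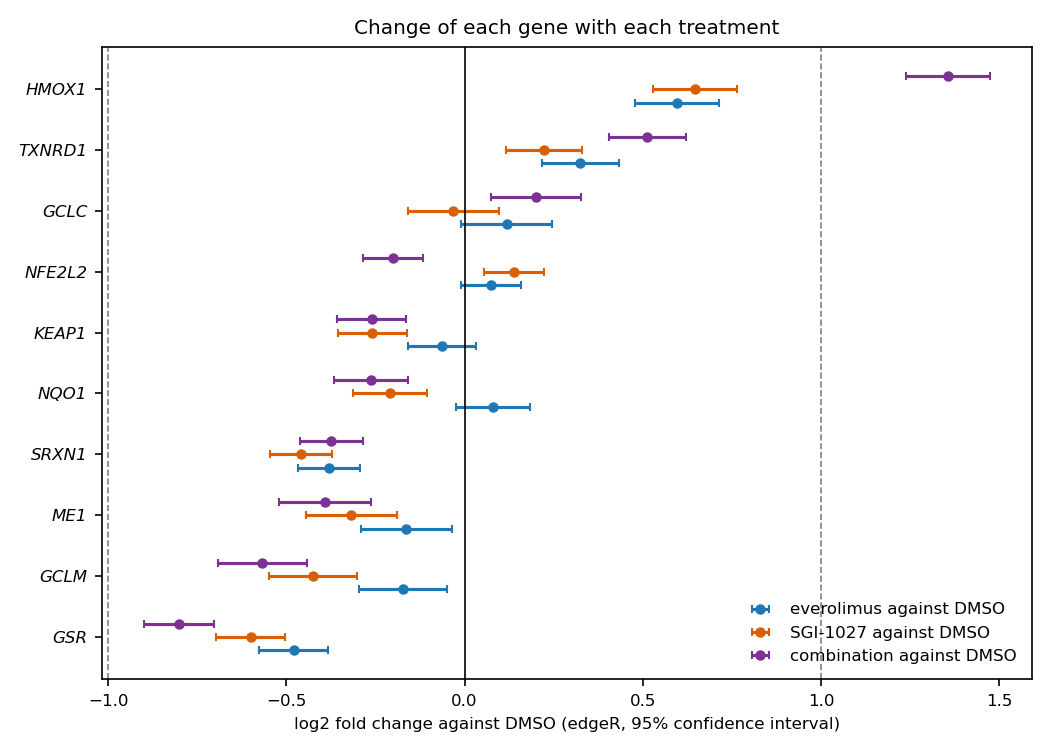
The x axis gives the log2 fold change against DMSO of each of the 10 genes for everolimus, SGI-1027 and the combination, with edgeR 95% confidence intervals, and dashed lines mark a change of 1 in either direction. HMOX1 with the combination, at 1.36, is the only value beyond a dashed line, and GSR with the combination is the lowest at -0.80.

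Counted together, 2 of the 10 genes were higher and 4 lower with everolimus, where 27.2% of all tested genes were higher and 29.2% lower. With SGI-1027, 3 were higher and 6 lower, against 32.0% and 30.6% of all genes. With the combination, 3 were higher and 7 lower, against 32.8% and 33.4%. The background of called genes was thus high in every comparison, and the numbers of higher members lay close to it. The lower members with SGI-1027 and with the combination were above the share of all genes, a description without a test of the list. Upper-quartile scaling turned the everolimus count to 5 higher and 2 lower, while among all called genes the higher share went from 48.2% to 60.7%. The median log2 fold change of the 10 genes was 0.01 with everolimus alone, -0.23 with SGI-1027 alone and -0.26 when both were given, beside medians over all genes of 0.00, 0.02 and 0.01.

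By the cut-off of the study, which asks for a log2 fold change of 1 or more in size and an unadjusted p under 0.05, HMOX1 in the combination was the 1 member called, where 9.96% of all genes were called. With everolimus 0 of the 10 passed that cut-off (4.79% of all genes) and with SGI-1027 0 passed it (7.33%), in edgeR, DESeq2 and limma-trend alike. At an unadjusted p under 0.05 alone, edgeR gave 6 of the 10 for everolimus, where 61.1% of all genes passed, and 9 for SGI-1027, where 66.0% passed.

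The combination was then set against each single drug. Against everolimus, 2 members were higher (HMOX1 and TXNRD1) and 6 lower (NFE2L2, KEAP1, NQO1, GCLM, GSR and ME1), where 20.1% of all genes were higher and 19.2% lower. Against SGI-1027, HMOX1, GCLC and TXNRD1 were higher and NFE2L2 and GSR lower, where 9.40% were higher and 10.2% lower. The lower count was 3 without SGI-1027 replicate 3 and 4 when DMSO replicate 1 was left out as well, with GCLM and NQO1 added. Among all called genes in that comparison, 47.9% were higher in the counts and 58.4% when log2(FPKM + 1) was tested. SGI-1027 lay below everolimus for KEAP1, NQO1 and GCLM (9.51% of all genes were lower), and 0 members were higher (13.0% of all genes) by edgeR, DESeq2 or limma-trend. At an unadjusted p under 0.05, edgeR also gave 0 higher and 6 lower members there, where 19.0% of all genes were higher and 15.9% lower. The lower count was 5 after upper-quartile scaling.

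**Figure D3:**
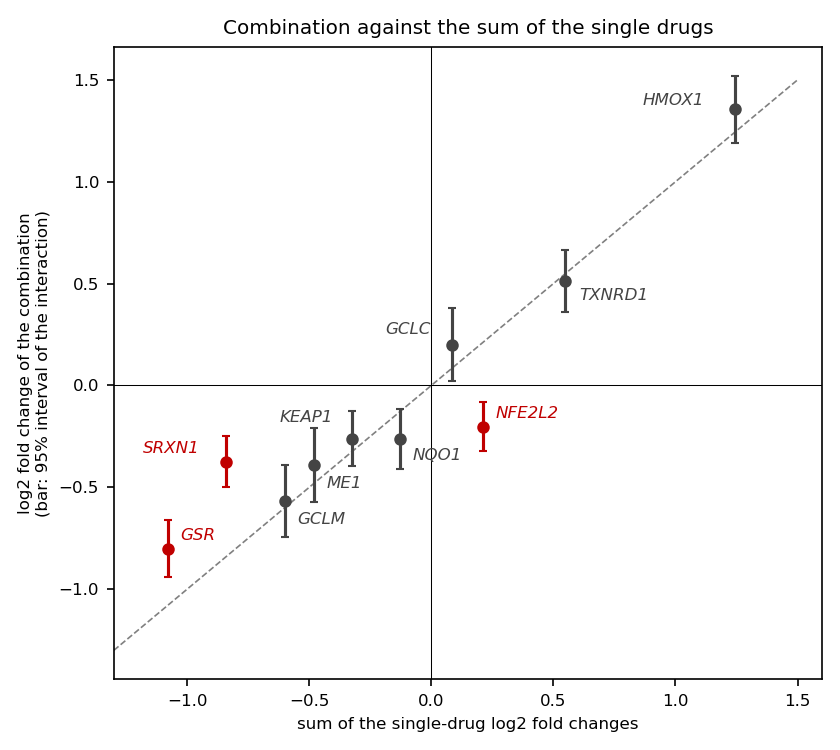
The x axis gives the sum of the log2 fold changes of everolimus and SGI-1027 against DMSO and the y axis the log2 fold change of the combination, with bars for the 95% interval of the interaction. The dashed line marks equality, and the genes in red, NFE2L2, SRXN1 and GSR, passed the interaction test. NFE2L2 lies below the line at -0.20 against 0.21, and SRXN1 above it at -0.37 against -0.84.

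Whether the drugs added up was tested with the interaction contrast, the log2 fold change of the combination minus the sum of those of the single drugs. This contrast takes the everolimus dose as equal in both groups that received it, which the protocol text leaves uncertain. It was called for 3 of the 10 genes, SRXN1 and GSR above the sum and NFE2L2 below it, while over all genes 23.6% were called above and 22.1% below. For NFE2L2 the single-drug changes summed to 0.21, whereas the combination gave -0.20, an interaction of -0.42 ± 0.06 SE (adjusted p = 1.12e-05). If the log2 changes had added, which multiplies the fold changes, NFE2L2 would have stood at 133 CPM. It was measured at 99.95 CPM. SRXN1 summed to -0.84 and was measured at -0.37, an interaction of 0.47 ± 0.06 (adjusted p = 5.30e-06), or 55.7 CPM in place of 40.4 CPM. With everolimus or SGI-1027 alone SRXN1 had stood at 55.5 and 52.5 CPM. GSR summed to -1.08 and was measured at -0.80, an interaction of 0.28 ± 0.07 (adjusted p = 0.00212).

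On the log2 scale HMOX1 came close to the sum of the single drugs, 1.36 measured against 1.24. Its interaction was 0.11, with an interval from -0.05 to 0.28 (adjusted p = 0.249). Without SGI-1027 replicate 3, the library with the highest HMOX1 value of its group, the interaction was 0.18 (adjusted p = 0.0435), and without DMSO replicate 1 as well it was 0.19 (adjusted p = 0.0260). NQO1 had an interaction of -0.13 (adjusted p = 0.129). It passed without SGI-1027 replicate 3 (-0.18, adjusted p = 0.0250), without DMSO replicate 3 (-0.19, adjusted p = 0.0339) and after upper-quartile scaling (-0.21, adjusted p = 0.0219), each of which raised the number of members below the sum to 2. For TXNRD1 the interaction was -0.04, with an interval from -0.19 to 0.12, and for GCLM it was 0.03, with an interval from -0.14 to 0.21. Under upper-quartile scaling the share of all called interactions that lay above the sum went from 51.7% to 39.5%.

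Levels were compared between genes on the FPKM scale. In the DMSO group TXNRD1 (86.1 FPKM) and NQO1 (82.3 FPKM) were the highest, followed by NFE2L2 at 36.0, KEAP1 at 34.1, SRXN1 at 28.4, ME1 at 20.6, HMOX1 at 20.5 and GSR at 18.3 FPKM. The ligase subunits were lowest, GCLM at 9.72 and GCLC at 7.50 FPKM. HMOX1 moved from the 7th place to the 5th with everolimus (31.1 FPKM), the 4th with SGI-1027 (32.1 FPKM) and the 3rd with the combination (53.3 FPKM), where it passed NFE2L2 at 31.7 FPKM. GCLM stood above GCLC with DMSO and below it with the combination, at 6.65 and 8.73 FPKM.

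**Figure D4:**
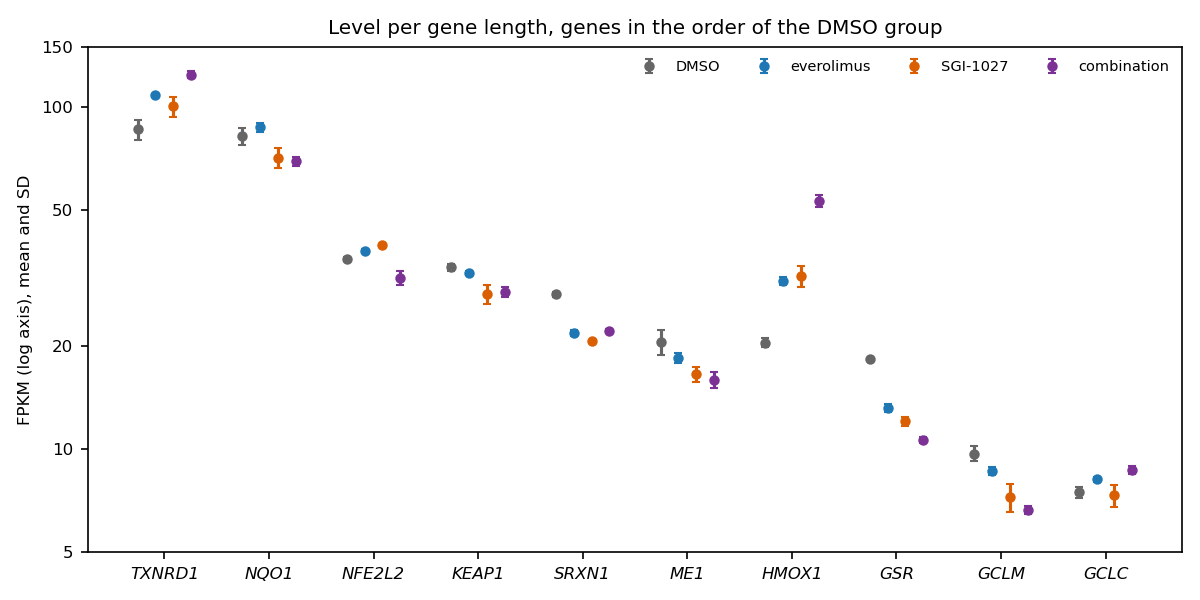
The y axis (log scale) gives the mean FPKM of each gene in the 4 groups with the SD of 3 libraries, and genes on the x axis are in the order of the DMSO group. HMOX1 changed place most, from 20.5 FPKM with DMSO to 53.3 FPKM with the combination, and GCLC and GCLM exchanged places.

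To place the 10 genes in the pathway, 86 further genes in 6 lists were examined, of which 80 were tested. With the combination 25 of them were higher and 36 lower, with SGI-1027 27 and 34, and with everolimus 21 and 23. After upper-quartile scaling these counts were 27 and 32, 30 and 27, and 31 and 16, so that the balance turned to higher for both single drugs. All genes shifted with that scaling too. Of all called genes, 56.4% were then higher with the combination, 58.8% with SGI-1027 and 60.7% with everolimus. Without that scaling, 32.8% of all tested genes were higher and 33.4% lower with the combination. The shares were 32.0% and 30.6% with SGI-1027, and 27.2% and 29.2% with everolimus. The median log2 fold change of the 80 genes with the combination was -0.08.

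Regulators of NRF2 lay mostly higher with the combination, 7 of 12 higher and 3 lower, beside 32.8% and 33.4% of all genes. Their median log2 fold change was 0.42. The list mixes partners of NRF2 with parts of the ligase that degrades it, so these counts give no direction of NRF2 activity. MAFF, a small MAF protein, rose from 7.85 to 37.2 CPM (2.25 ± 0.08 SE, adjusted p = 3.45e-14). SQSTM1, the autophagy receptor p62 that can sequester KEAP1, stood at 377.9 CPM with DMSO, 625 CPM with everolimus, 814 CPM under SGI-1027 and 1177 CPM when both drugs were given (1.64 ± 0.03, adjusted p = 1.04e-16). CUL3, the scaffold of the ligase, fell by 0.24 under everolimus, 0.38 under SGI-1027 and 0.56 under both on the log2 scale (adjusted p = 1.79e-04, 7.52e-07 and 3.53e-09). DPP3, a KEAP1-binding peptidase, fell by 0.36 with the combination (adjusted p = 1.87e-06).

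Of the genes of glutathione use, 6 of 16 were higher and 5 lower with the combination, near the 32.8% and 33.4% of all genes. The glutaredoxin gene GLRX rose by 0.95 (adjusted p = 4.49e-06) and the microsomal transferase gene MGST3 by 0.72 (adjusted p = 5.37e-10). The peroxidase gene GPX1 fell by 0.36 (adjusted p = 1.58e-07) and the transferase gene GSTM3, whose reads may be shared with close copies of the family, by 0.40 (adjusted p = 3.71e-05). In the thioredoxin and peroxide list 4 of 13 were higher and 7 lower. PRDX5, a peroxiredoxin, rose by 0.73 and SOD2, the mitochondrial superoxide dismutase, by 0.70 (adjusted p = 1.96e-11 and 1.29e-11). PRDX3, the mitochondrial peroxiredoxin, fell by 0.82 and TXN2, the mitochondrial thioredoxin, by 0.43 (adjusted p = 2.13e-09 and 4.57e-08).

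In the list of NADPH metabolism 5 of 10 genes were lower with the combination and the others had no call. Among the others, 1 was higher when DMSO replicate 1 and SGI-1027 replicate 3 were left out of the edgeR fit. Over all genes 33.4% were lower and 32.8% higher. After upper-quartile scaling 3 of the 10 were lower and 0 higher, where 3684 of all 12841 tested genes were lower. IDH2, a mitochondrial isocitrate dehydrogenase, fell by 0.35 and ME2, a mitochondrial malic enzyme, by 0.33 (adjusted p = 6.41e-07 and 9.42e-06). Detoxification and export genes were mostly lower with the combination, 14 of 22, with 4 higher, beside the same 33.4% and 32.8% of all genes. ABCC3, an export pump of conjugates, rose from 152 to 299 CPM (0.98 ± 0.05 SE, adjusted p = 2.36e-11) and the epoxide hydrolase gene EPHX1 rose by 0.30 (adjusted p = 2.78e-04). The aldo-keto reductase genes AKR1B10 and AKR1C1 were among them, AKR1B10 with a log2 fold change of -1.38 (adjusted p = 2.10e-07) and AKR1C1 with -1.07 (adjusted p = 1.79e-04). AKR1C1 stood at only 2.67 CPM with DMSO, and reads of AKR1C genes may be shared between near-identical copies.

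Among the haem and iron genes, 4 of 7 were higher and 2 lower with the combination, beside 32.8% and 33.4% of all genes. The ferritin genes FTH1 and FTL, which store the iron that haem oxygenase frees, rose by 1.22 and 0.80 (adjusted p = 2.94e-12 and 3.25e-10), with the limit that both have many processed copies in the genome. FTH1 stood at 2458 CPM with DMSO, at 4083 and 4845 CPM in the everolimus and SGI-1027 groups, and at 5713 CPM in the combination group. HMOX2, the constitutive haem oxygenase, fell by 0.57 with the combination (adjusted p = 2.10e-08), opposite to HMOX1, and fell by 0.57 and 0.55 with everolimus and SGI-1027. FECH, the last enzyme of haem synthesis, fell by 0.31 (adjusted p = 4.49e-05).

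**Figure D5:**
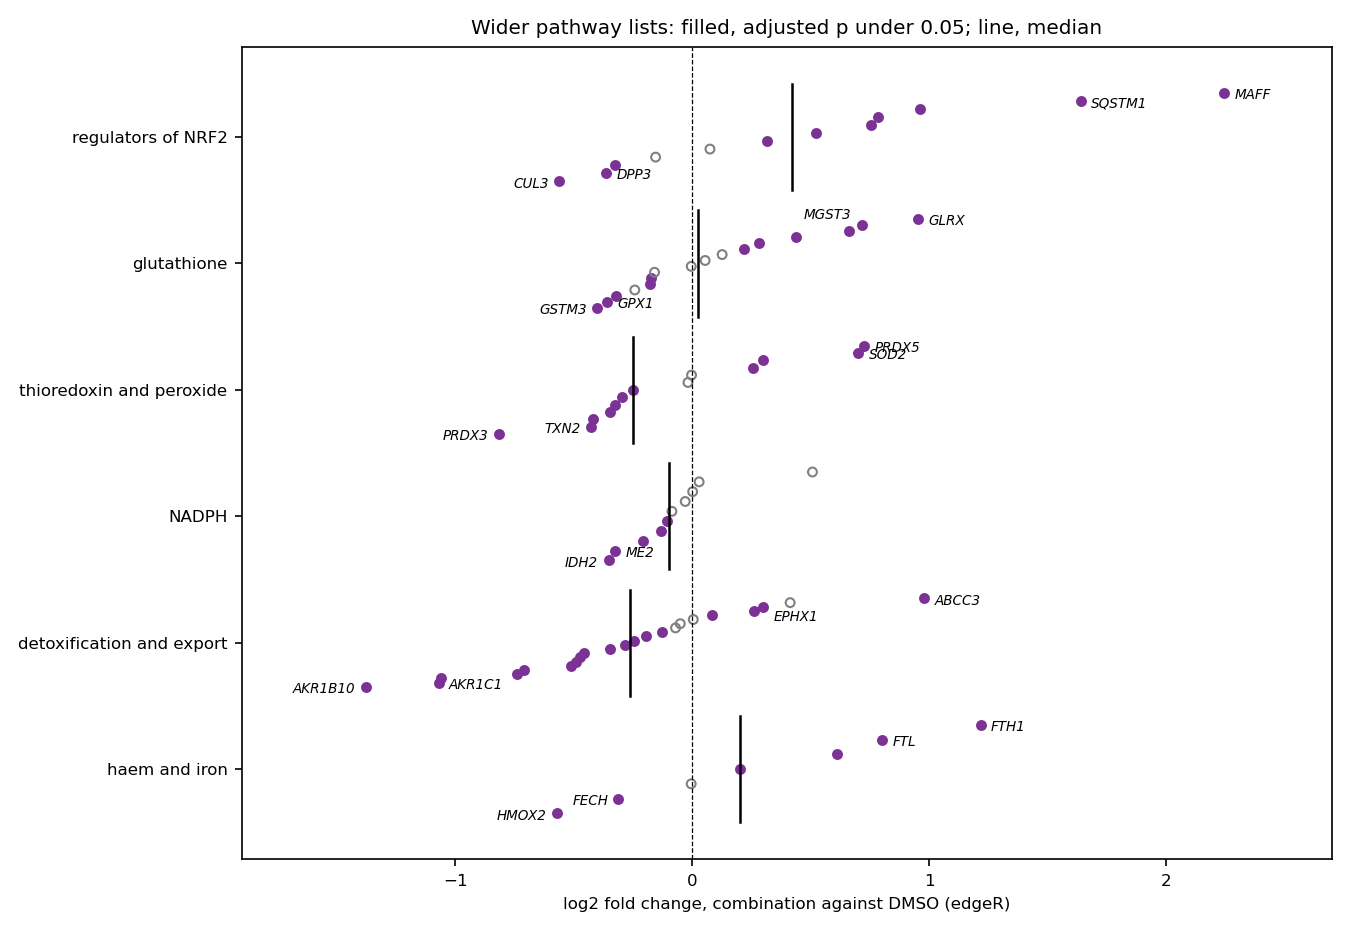
Points are the tested genes of the 6 wider lists by their log2 fold change in the combination against DMSO (x axis), filled where the adjusted p is under 0.05, with a line at the median of each list. MAFF at 2.25 and SQSTM1 at 1.64 are the highest of the regulators, and AKR1B10 at -1.38 is the lowest of all.

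The genes most alike in pattern were looked up over the 12 libraries among 11465 tested genes whose mean count reached 50. For HMOX1 these were PODXL (Pearson r = 0.993), LAMB3 (0.991) and COL6A3 (0.987). For NFE2L2, SLC6A6 was among them (0.964). The libraries share the 4 treatments, so these correlations describe group patterns and carry no test. SLC6A6 stood at 314, 335, 430.5 and 218 CPM in the DMSO, everolimus, SGI-1027 and combination groups. Among the members themselves, HMOX1 and GSR ran opposite to each other (r = -0.942) and KEAP1 ran with GCLM (r = 0.930), again over the same 12 libraries.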

How the data were processed

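RNA sequencing of 786-O cells gave 12 libraries in 4 groups. The authors deposited a whole-number count for each gene and library, without normalization, and in a second table FPKM values for the same genes, in which 0 occurs exactly where the count is 0. The aligner, counting program and annotation are not given in the sources used here. The submitters' processing notes name the mouse builds GRCm38 and mm10 although cells and gene symbols are human, so no coordinates of the files were used. The methods name TRIzol and a stranded TruSeq kit, the labels an RNeasy extraction and a SMARTer kit. If strand was not used in counting, reads of overlapping genes cannot be told apart.

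Counts were fitted in edgeR 4.0.16 (R 4.3.3) with filterByExpr, TMM factors and all 12 libraries in 1 quasi-likelihood model, for 6 comparisons of 2 groups and 1 interaction contrast. CPM are TMM-normalized. P values were adjusted after Benjamini and Hochberg across 12841 genes and called under 0.05. Alternatives were DESeq2 1.42.0, limma-trend 3.58.1 on log2(FPKM + 1) and log2(FPKM + 0.1), upper-quartile scaling, other filters, fits of the compared groups only, a replicate block, and leaving out each library. Leaving out DMSO replicate 1 and SGI-1027 replicate 3 together was chosen after seeing the data. The procedure was tested on simulated data.

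The 10 genes and the wider lists were chosen with earlier results of these data known. All 10 are named whatever their values. Of each wider list the 2 highest and 2 lowest log2 fold changes with the combination were named, among genes with an adjusted p under 0.05 and a mean of at least 50 counts. The likeness of pattern was computed for NFE2L2 and for the member with the widest span of group means, and some genes that this rule would name are not reported here.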

Additional observations from a re-analysis of the deposited data

Results flagged for a closer look

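For 3 of the 10 genes the effect of SGI-1027 differed with and without everolimus, by the interaction test in edgeR. If the everolimus group received 10 µM, this contrast also holds a difference in dose. NFE2L2 had an interaction of -0.42 on the log2 scale, SRXN1 of 0.47 and GSR of 0.28. Over the 20 alternative settings each kept its direction and passed, with ranges from -0.49 to -0.38 for NFE2L2, from 0.39 to 0.49 for SRXN1 and from 0.21 to 0.31 for GSR, while 23.6% of all tested genes were called above the sum of the single drugs and 22.1% below it. No group of 4 or more libraries was available for a test of single outlying libraries.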

How the results depend on the processing

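Of 1460 alternative values of the 10 genes, 1401 kept their direction and side of the threshold, 12 lost their call, 22 gained one and 25 changed sign, all of the last without a call. At the study's cut-off the members higher with the combination against DMSO numbered 1, and every other count was 0. Upper-quartile scaling gave 5 higher and 2 lower with everolimus, 5 lower for SGI-1027 against everolimus and 2 below the sum in the interaction. Leaving out both libraries that stood apart gave 4 lower for the combination against SGI-1027 and 2 below the sum. Leaving out 1 library, the lower count with everolimus ran from 2 to 4 (2 without DMSO replicate 3 or everolimus replicate 1) and the count below the sum from 1 to 2 (2 without DMSO replicate 3 or SGI-1027 replicate 3). The higher count with everolimus and the count above the sum ran from 2 to 3. For the combination against SGI-1027 the higher and lower counts each ran from 2 to 3. The lower count for SGI-1027 against everolimus ran from 3 to 4. In limma-trend 3 were lower with everolimus, 4 higher for the combination against SGI-1027 and 4 lower for SGI-1027 against everolimus. The cause of these shifts was not tested.

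Values that changed sign were near 0. Under upper-quartile scaling they were KEAP1 0.011 with everolimus and -0.012 for the interaction, GCLC 0.023 with SGI-1027, GCLM -0.042 for the interaction and SRXN1 -0.012 for the combination against everolimus. KEAP1 for the combination against SGI-1027 was 0.0040 without a filter, 0.0015 with only the compared groups, 0.0054 in DESeq2 and 0.019 and 0.020 in the limma fits. Without both libraries that stood apart, HMOX1 was -0.011 for SGI-1027 against everolimus and the GCLM interaction was -0.027. Leaving out 1 library, the ranges were -0.043 to 0.043 for KEAP1 (combination against SGI-1027), -0.0075 to 0.099 for HMOX1 (SGI-1027 against everolimus), -0.073 to 0.025 for GCLC (SGI-1027 against DMSO), -0.039 to 0.076 for GCLM and -0.083 to 0.026 for TXNRD1 (interaction), and -0.0083 to 0.024 for SRXN1 (combination against everolimus).

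With the replicate block, the 10 genes kept all 70 values in direction and call, with 2 higher and 4 lower for everolimus, 3 and 6 for SGI-1027, and 3 and 7 for the combination. No pairing by replicate number was seen. Of the same-numbered pairs, 0 of 18 correlated above 0.1 (-0.176 to 0.0358), and 1 of 12 libraries correlated best with its own number in every other group. With deviations from means of 3 libraries, this check cannot show that the libraries were unpaired. How far counting error and the spread of 3 libraries each limit the smaller changes was not tested. The everolimus dose conflict in the labels and the undocumented counting could not be resolved.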
